A study of Mus musculus with 12 samples.

Results

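The comparison described here is that of LJP-treated mice after cerebral ischemia with sham-operated mice, 4 against 4 of the 12 mice sequenced. LJP is a polysaccharide purified from the brown alga Laminaria japonica. In the LJP mice the middle cerebral artery was occluded for a time (tMCAO): a filament inserted through the left common carotid artery blocked it and was then withdrawn so that blood returned. These mice received LJP in saline by stomach tube every day before surgery and again after it. The Sham mice had sham surgery without ischemia and received saline on the same schedule, so both ischemia and LJP differ between the groups compared. The Vehicle mice, 4 in number, underwent tMCAO and received saline, and they stand here only as a reference for the ischemic response without LJP. All 12 mice were adult male C57BL/6J mice with no transgene, labelled as 1 batch, and poly(A) RNA of the whole ischemic hemisphere was sequenced. The study went on with the middle one of its LJP doses after comparing them, but its description of the sequencing names neither the dose nor the time of sampling. No mouse was treated with LJP without ischemia, so effects of LJP itself and of ischemia under LJP cannot be told apart in this comparison.

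Focal ischemia followed by reperfusion sets off a glial response in the brain. Astrocytes around the injury enlarge and take up a reactive program led by intermediate filament proteins and acute phase proteins, while microglia, the resident phagocytes, divide, tag debris with complement and clear it through lysosomes. Neurons in the territory of the middle cerebral artery, which includes the striatum, are lost or lower their activity genes, and blood-borne leukocytes may enter the tissue. The question was which genes and functions of this response remained apart from Sham in mice given LJP.

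Total counts per mouse ranged from 17960353 to 22216315, and 17558 of 39756 genes had enough counts to be tested. Levels are given as CPM, the read count of a gene scaled to the normalized library size. Neuronal markers were abundant in all mice, at a summed level of 6892 to 7687 CPM in Sham and 6387 to 7522 in LJP mice. Markers of the choroid plexus varied between 25.2 and 939 CPM among the 12 mice and were at 402 CPM or more in LJP mouse 3, Sham mice 2, 3 and 4 and Vehicle mice 3 and 4, and at 35.2 CPM or less in the others. Within the Vehicle group, mice 1 and 2 stood apart: fibroblast markers reached 1392 CPM in Vehicle mouse 2 against at most 111 in any LJP mouse, and erythroid markers reached 89.2 CPM in Vehicle mouse 1 against at most 8.92. Nothing in the labels says whether the mice came from several litters or surgery days.

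Of the 17558 genes, 834 differed between LJP and Sham mice at an edgeR adjusted p under 0.05, a threshold called "passed" from here on. Of these, 676 were higher in LJP mice, which is 3.85% of the genes tested, and 158 were lower, which is 0.900%. The higher genes changed by more than the lower ones: their median log2 fold change was 1.55, and 487 were over 2-fold, 233 over 4-fold and 75 over 8-fold higher, while the lower genes had a median of -0.54 and only 34 of them were over 2-fold lower. In 669 of the 676 higher genes and in all 158 lower genes the 4 LJP values did not overlap the 4 Sham values, against 24.9% of all genes tested. Protein-coding genes made up 653 of the higher and 144 of the lower genes. Since whole hemispheres were sequenced, more cells of a type and more RNA per cell cannot be told apart in any of these results.

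The count depended on which mice entered the fit. With the 8 Sham and LJP mice alone, 4043 of 16959 genes passed, 2048 higher (12.1%) and 1995 lower (11.8%), so the share of higher genes fell from 81.1% to 50.7%. The fit of 8 mice also called 802 of the 834 genes. The median SD of log2 levels within a group was 0.115 in Sham, 0.148 in LJP and 0.282 in Vehicle mice. Without Vehicle mouse 2 alone, 2357 genes passed, while without one of the Sham mice 1 to 4 there were 403, 430, 425 and 440, without LJP mouse 1 there were 518 and without LJP mouse 3 there were 393. Counts below are from all 12 mice, with the count of functional list members in the 8 mice beside them. Of all genes, 3.85% were higher and 0.900% lower in the 12 mice, and 12.1% and 11.8% in the 8. Some list members had enough counts only with the Vehicle mice in the filter. The Vehicle medians of such lists rest partly on that selection. Among the genes named below as higher or lower by the rule, those that no longer passed when at least one of the Sham or LJP mice was left out were Anxa2, B2m, Bst2, Cd86, Clu, Csf3r, Ctsb, Ctsl, Cx3cr1, Ftl1, Gpnmb, Hmga2, Irf7, Itgam, Itgax, Lcn2, Lif, Mt1, Plin2, Psmb8, Psmb9, Rrm2, Tap1, Tgfb1, Timp1, Tnfrsf1a, Top2a and Vwf among the higher genes, and Adora2a, Cacna1c, Gabra4, Kcnab1, Pde1b, Rarb, Rasgrp2, Scn4b and Shank3 among the lower genes.

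**Figure D1:**
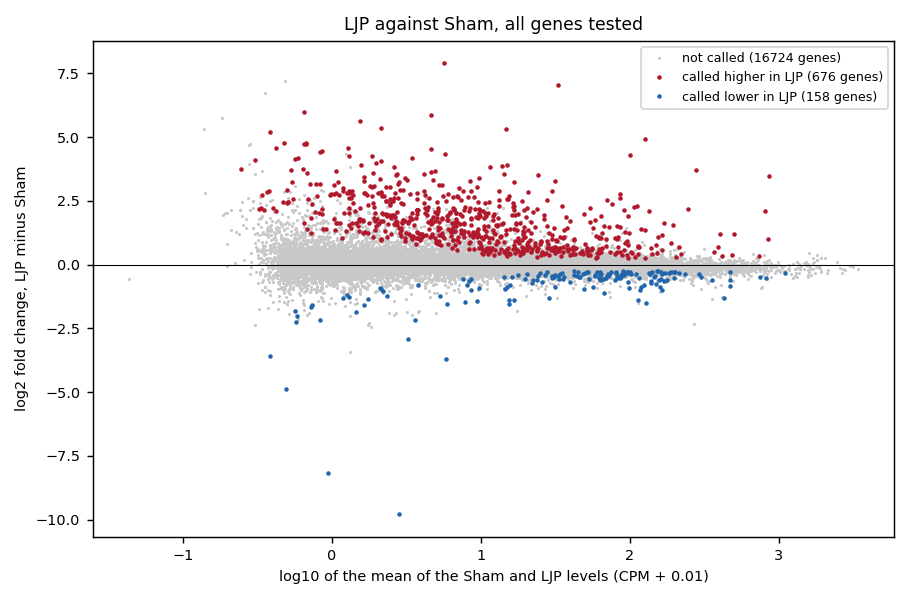
Log2 fold change of LJP minus Sham (vertical axis) against the log10 mean level of the 2 groups (horizontal axis, CPM + 0.01) for each of the 17558 genes tested, with the 676 genes called higher in red and the 158 called lower in blue. The red points spread up to a fitted log2 fold change of 7.90 (Cd5l, which had 3 reads in all Sham mice together), and most blue points lie close to the zero line, 124 of 158 within a 2-fold difference.

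The same direction was seen in the Vehicle mice for nearly all of these genes. In Vehicle against Sham 3982 genes were higher (22.7% of those tested) and 3032 lower (17.3%). The 676 genes higher in LJP mice included 667 that were also called higher in Vehicle mice, 98.7% of the LJP list and 16.8% of the Vehicle list. For the lower genes the shared number was 144, or 91.1% of the LJP list and 4.75% of the Vehicle list. The 2 comparisons share the Sham mice, which makes some overlap unavoidable. The median level of the 676 higher genes was 3.84 CPM in Sham, 12.1 in LJP and 17.7 in Vehicle mice. LJP and Vehicle mice were also compared directly, which tests whether the distance from Sham differed between them, and 4 genes passed that test (0.0228%): Csf3, Scgb1a1, Sftpa1 and Sftpb.

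C4b, which encodes complement component 4, had the smallest p-value of all genes. Its level was 21.3, 24.1, 21.3 and 20.005 CPM in Sham mice 1 to 4 and 163, 129.7, 182 and 120.4 CPM in LJP mice 1 to 4. All 4 LJP mice were far above all 4 Sham mice. The log2 fold change was 2.78 ± 0.14 (SE, edgeR adjusted p = 1.33e-06), beside 3.00 in Vehicle against Sham. C4b lies on chromosome 17 next to its close copy C4a, and reads shared between the copies may have been split by the counting.

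Tgm1, a transglutaminase that crosslinks proteins, was nearly silent in Sham mice, at 0.404, 0.272, 0.548 and 0.726 CPM. In LJP mice it stood at 59.6, 65.6, 88.2 and 46.3 CPM, so all 4 were far above Sham. The log2 fold change was 7.03 ± 0.54 (SE, edgeR adjusted p = 5.92e-05), among the largest of the genes that passed. Gfap, the intermediate filament protein of reactive astrocytes, had levels of 107, 155, 151 and 151 CPM in Sham and 2112, 1236, 1909 and 1019 CPM in LJP mice. It rose by 3.47 on the log2 scale ± 0.27 (SE, edgeR adjusted p = 6.04e-05), and LJP mice 1 and 3 were above LJP mice 2 and 4. Serpina3n, a secreted protease inhibitor of the acute phase, was at 11.015, 7.85, 9.86 and 10.3 CPM in Sham and 167, 153, 305 and 143 CPM in LJP mice, a log2 fold change of 4.30 ± 0.38 (SE, edgeR adjusted p = 0.000161). Its Vehicle levels were 774, 668, 338 and 264 CPM, and the LJP mice overlapped them only through LJP mouse 3. The direct difference between LJP and Vehicle was -1.41 on the log2 scale and did not pass (edgeR adjusted p = 0.0678).

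The other genes with the smallest p-values included several known from phagocytes. Tlr2, a receptor for bacterial and damage-derived lipoproteins, rose from a Sham mean of 0.683 to an LJP mean of 8.48 CPM (log2 fold change 3.62). C3ar1, the receptor of the complement fragment C3a, changed by 3.92, and the lysosomal glycoprotein Cd68 by 3.29. Lgals3, a secreted galectin of phagocytes, was at 0.404, 0.654, 0.658 and 1.14 CPM in Sham and 30.9, 17.7, 52.3 and 14.8 CPM in LJP mice, and all 4 LJP values lay far above Sham. Cd44, the hyaluronan receptor, rose by 3.89 and the myosin Myo1f by 2.43. Neat1, the long noncoding RNA that builds nuclear paraspeckles, was at 70.2, 69.0, 68.8 and 74.7 CPM in Sham and 161, 200.0, 236 and 135 CPM in LJP mice (log2 fold change 1.37), about the level of the Vehicle mice at 156, 168, 188 and 179 CPM. Dhrs1, a short-chain dehydrogenase, rose by 1.48. All of these had an edgeR adjusted p of at most 0.000411.

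**Figure D2:**
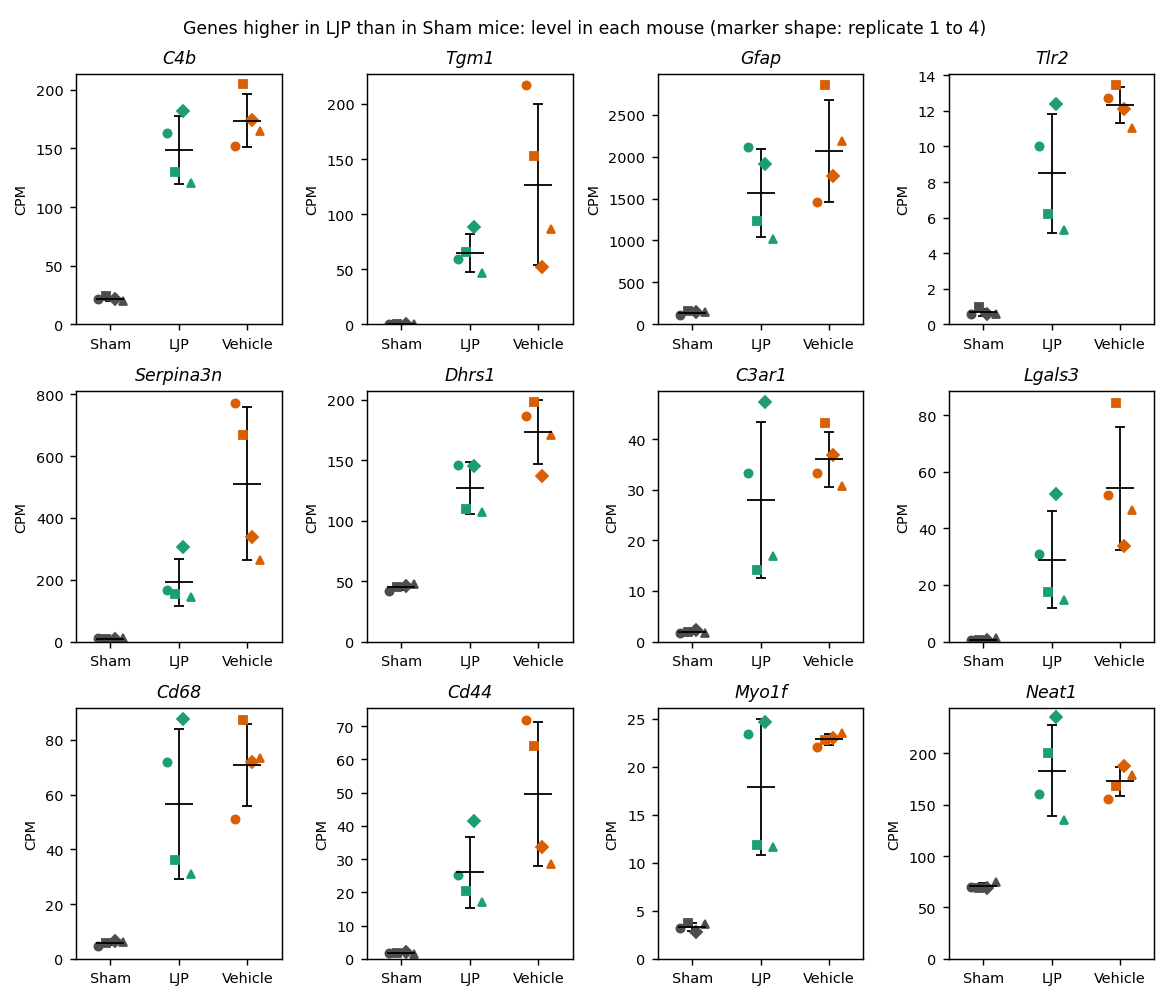
Level in CPM (vertical axes, each from 0) of the 12 genes that were higher in LJP than in Sham mice with the smallest p-values, 1 panel a gene, with 1 point a mouse (marker shape for replicate 1 to 4) and the mean with its SD as a black bar, n = 4 a group. In every panel all 4 LJP points lie above all 4 Sham points, which the rule that chose these genes required. In all panels but those of Tgm1 and Neat1 both LJP mice 1 and 3 lie above LJP mice 2 and 4.

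Among genes with a larger fold were several that Sham mice barely expressed. Cd5l, a scavenger receptor family protein of tissue macrophages, had 2, 0, 0 and 1 reads in Sham mice and 449, 33, 406 and 18 reads in LJP mice 1 to 4. LJP mice 1 and 3 held most of these reads. Over the summed reads the ratio of LJP to Sham was 284 (exact 95% counting interval 96.8 to 1379, which covers counting error only). Hmga2, a chromatin protein of proliferating and embryonic cells, had 0, 1, 0 and 0 reads in Sham and 34, 19, 36 and 11 in LJP mice, a ratio of 94.0 (exact 95% counting interval 16.5 to 3750), and it no longer passed without any one of the Sham mice or without LJP mouse 3. Hcar2, the receptor for niacin and ketone bodies, had 0, 3, 0 and 0 reads in Sham and 53, 10, 31 and 9 in LJP mice, a ratio of 32.3 (10.7 to 159). For both Hmga2 and Hcar2 all Sham reads came from Sham mouse 2, and without that mouse the Sham mice had 0 reads, so the ratios rest on it. Spp1, which encodes the secreted matrix protein osteopontin, was at 6.86, 10.4, 8.33 and 6.79 CPM in Sham and 212, 56.3, 644 and 69.2 CPM in LJP mice, so LJP mouse 3 was far above the other LJP mice. It rose by 4.92 on the log2 scale ± 0.88 (SE, edgeR adjusted p = 0.00687), and without LJP mouse 3 by 3.80 (edgeR adjusted p = 0.0144). Cst7, a lysosomal cysteine protease inhibitor of activated microglia, was at 0.115, 0.0545, 0.164 and 0.0518 CPM in Sham and 7.45, 1.79, 5.17 and 2.29 CPM in LJP mice. Lilrb4a and Lilr4b, inhibitory and related leukocyte receptors that are near copies of each other, were both higher, and their reads may have been shared between them.

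Promoter sequences of 4 of these genes are shown because each holds matches to a motif known from the glial or interferon response. They are taken from RefSeq on GRCm38.p6, run from 250 bases before the annotated start to 50 after it, and are written along the gene's own strand, with motif matches on either strand in capitals. The motifs searched were TTCNNNGAA (the STAT motif), TGANTCA (AP-1), GAAANNGAA (the repeat of interferon response elements) and GAGGAAGT (PU.1, the myeloid ETS factor). Tgm1 lies on the minus strand at chr14:55713443-55713742, Cd68 on the minus strand at chr11:69666121-69666420, Spp1 on the plus strand at chr5:104434861-104435160 and Ifit3 on the plus strand at chr19:34583279-34583578.
Tgm1: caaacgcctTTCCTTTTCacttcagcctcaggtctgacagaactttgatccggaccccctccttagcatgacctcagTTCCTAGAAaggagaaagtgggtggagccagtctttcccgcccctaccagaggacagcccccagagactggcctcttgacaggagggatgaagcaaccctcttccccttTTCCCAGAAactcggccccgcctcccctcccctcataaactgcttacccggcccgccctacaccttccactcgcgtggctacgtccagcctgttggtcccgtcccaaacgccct
Cd68: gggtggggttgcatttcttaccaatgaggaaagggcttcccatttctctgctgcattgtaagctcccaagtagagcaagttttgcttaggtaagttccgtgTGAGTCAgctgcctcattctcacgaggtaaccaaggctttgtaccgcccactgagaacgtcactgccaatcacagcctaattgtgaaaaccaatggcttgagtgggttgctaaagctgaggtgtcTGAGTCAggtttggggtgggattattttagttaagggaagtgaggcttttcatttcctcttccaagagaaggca
Spp1: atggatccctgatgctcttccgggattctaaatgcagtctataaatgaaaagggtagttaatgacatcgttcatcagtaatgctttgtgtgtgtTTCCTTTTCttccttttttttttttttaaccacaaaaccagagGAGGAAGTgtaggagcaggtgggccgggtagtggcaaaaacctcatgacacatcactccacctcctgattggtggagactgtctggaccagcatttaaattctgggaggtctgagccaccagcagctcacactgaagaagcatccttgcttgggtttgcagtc
Ifit3: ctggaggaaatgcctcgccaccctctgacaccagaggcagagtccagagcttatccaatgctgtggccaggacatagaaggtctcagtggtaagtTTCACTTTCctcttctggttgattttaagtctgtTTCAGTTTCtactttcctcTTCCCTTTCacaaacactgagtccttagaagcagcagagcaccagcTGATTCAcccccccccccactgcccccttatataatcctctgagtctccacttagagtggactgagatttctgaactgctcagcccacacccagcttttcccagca
The STAT and AP-1 motifs read the same on both strands, and matches of different motifs may overlap. The Tgm1 window held 2 STAT matches and 1 interferon match, the last on the opposite strand. The Cd68 window held 2 AP-1 matches, and the Spp1 window 1 PU.1 match and 1 interferon match, the last on the opposite strand. The Ifit3 window held 3 interferon matches on the opposite strand and 1 AP-1 match. A match is a run of letters and does not show that a factor binds there.

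The same search was made in the promoters of all genes tested that have one in RefSeq, 13710 in number. A PU.1 match was held by 2.83% of them, by 9.74% of the 534 promoters of genes higher in LJP mice and by 1.68% of the 119 promoters of genes lower in LJP mice. The AP-1 motif was found in 5.18%, 9.93% and 3.36% in the same order, the interferon motif in 7.11%, 12.2% and 11.8%, and the STAT motif in 6.81%, 7.30% and 8.40%. Of the 10 promoters found for the interferon-stimulated genes that rose, 5 held the interferon motif, 4 the STAT motif, 3 the AP-1 motif and 0 the PU.1 motif. Of the 15 found for reactive astrocyte genes that rose, 5 held the STAT motif, 4 the AP-1 motif, 3 the interferon motif and 0 the PU.1 motif, and of the 20 for phagocytic microglia 5 held the AP-1 motif, 3 each the interferon and PU.1 motifs and 1 the STAT motif. These shares are descriptions, no difference between them was tested, and base composition was not matched.

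Reactive astrocyte genes were higher in part. Of 37 members tested, 19 were higher and 0 lower, and in the 8 mice alone 31 of 35 were higher. The median log2 fold change of the list was 1.70 for LJP against Sham and 2.92 for Vehicle against Sham, beside 0.00 for all genes tested in both. Without Sham mouse 1, 2 or 3 the count of higher members was 12, 12 and 11. Vim, the filament partner of Gfap, was at 37.6, 38.0, 38.5 and 40.3 CPM in Sham and 604, 409, 718 and 321 CPM in LJP mice, a log2 fold change of 3.73 ± 0.39 (SE, edgeR adjusted p = 0.000414). Osmr, the oncostatin M receptor, rose by 2.23, and S100a10, an annexin partner, by 1.08. For a pair of members the Vehicle values are given beside the LJP values. Lcn2, an iron-binding acute phase lipocalin, was at 0.519, 0.708, 0.658 and 0.259 CPM in Sham, 4.9961, 12.3, 12.6 and 13.9 CPM in LJP and 166, 107, 16.5 and 16.6 CPM in Vehicle mice. Timp1, an inhibitor of matrix proteases, was at 1.33, 0.763, 1.04 and 0.777 CPM in Sham, 6.22, 8.69, 10.4 and 3.79 CPM in LJP and 74.8, 103, 8.23 and 18.1 CPM in Vehicle mice. For Lcn2 all LJP mice lay below all Vehicle mice, while for Timp1 Vehicle mouse 3 lay within the LJP range, and the direct differences of -2.81 and -2.81 on the log2 scale did not pass (edgeR adjusted p = 0.0678 for each). Of 8 general astrocyte markers 1 passed (Aldh1l1, higher), and in the 8 mice 4 were higher and 1 lower. Their summed level was 4208 to 4656 CPM in Sham and 3862 to 4206 in LJP mice, lower in every LJP mouse, while the median log2 distance of the markers from the Sham mean was 0.08 to 0.22 in LJP mice and at most 0.03 in Sham mice. The part of these shifts in the reactive genes was not tested.

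Of 31 genes of phagocytic microglia 25 were higher and 0 lower, the largest share among the functional lists in the fit of 12 mice, and 29 of 31 were higher in the 8 mice. The median log2 fold change was 1.95 in LJP and 2.32 in Vehicle mice against Sham. Ctsd, a lysosomal aspartic protease, was at 280.0, 310.3, 312 and 328 CPM in Sham and 1752, 771, 1899 and 815 CPM in LJP mice. It changed by 2.09 on the log2 scale ± 0.37 (SE, edgeR adjusted p = 0.00597), and LJP mice 1 and 3 had over 2 times the level of LJP mice 2 and 4. Trem2, the lipid-sensing receptor of microglia, was at 10.7, 11.6, 11.015 and 10.9 CPM in Sham and 56.4, 26.3, 54.9 and 30.8 CPM in LJP mice (log2 fold change 1.93), and its adaptor Tyrobp rose by 2.27. Gpnmb, a glycoprotein of lipid-laden phagocytes, was also far apart between these mice, at 49.0, 7.11, 43.5 and 6.13 CPM in LJP mice against 2.25, 1.74, 2.41 and 2.59 CPM in Sham mice. Clec7a, the beta-glucan receptor, rose by 3.91, the integrin Itgax by 2.76 and the scavenger receptor Msr1 by 4.52 (3.80 without LJP mouse 3). The lysosomal proteases Ctsz, Ctsb, Ctss and Ctsl rose by 1.93, 1.00, 1.47 and 1.38.

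Some microglial identity genes were higher too. Of 14 markers, 8 passed, all higher (10 in the 8 mice), and the summed level was 386 to 395 CPM in Sham, 664 to 1220 in LJP and 530 to 1169 in Vehicle mice. Csf1r, the receptor on which microglia depend for survival, was at 98.2, 102, 95.1 and 104 CPM in Sham and 259.9, 163, 252 and 163 CPM in LJP mice (log2 fold change 1.07 ± 0.19 SE, edgeR adjusted p = 0.00627). Cx3cr1, the fractalkine receptor, was at 42.9, 40.3, 40.0 and 38.7 CPM in Sham and 103, 64.9, 103 and 60.8 CPM in LJP mice, a log2 fold change of 1.04. The purinergic receptor P2ry12, a marker of resting microglia singled out after its values were seen, had a log2 fold change of 0.35 and did not pass (edgeR adjusted p = 0.583). The marker sum moved with the phagocytic genes, and its part in their change was not tested.

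Some complement genes were higher. Of 23 members tested, 10 were higher and 0 lower, and 16 were higher in the 8 mice, with a median log2 fold change of 0.88 in LJP and 1.86 in Vehicle mice. The chains of C1q, which starts the classical pathway, rose by 2.30 (C1qa), 2.13 (C1qb) and 2.27 (C1qc). C1qa was at 34.5, 36.7, 39.2 and 38.9 CPM in Sham and 238, 118, 259 and 122 CPM in LJP mice, with no overlap. The receptors C5ar1 and C5ar2 rose by 3.67 and 1.52, and the integrin chains of complement receptor 3, Itgam and Itgb2, by 1.45 and 2.41. Clu, the fluid-phase inhibitor clusterin, rose by a smaller 0.35 from an already high Sham mean of 647 CPM.

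Receptors for cytokines and innate signals were higher in part. Of 41 receptors tested, 16 were higher (30 in the 8 mice) with a median log2 fold change of 1.07, beside 2.20 in Vehicle mice. Without Sham mouse 1, 2, 3 or 4 the count was 7, 10, 10 and 9, without LJP mouse 3 it was 8, and without Vehicle mouse 2 it was 25. Tlr13 and Tlr7, endosomal receptors of RNA, rose by 2.68 and 2.22. Tnfrsf1b, the TNF receptor of leukocytes and microglia, rose by 1.90 and Tnfrsf1a, the TNF receptor found on most cells, by 1.66. Csf3r, the receptor of granulocyte colony-stimulating factor, was at 4.79, 6.05, 6.03 and 6.43 CPM in Sham, 21.5, 9.82, 19.3 and 10.4 CPM in LJP and 48.2, 38.2, 17.4 and 24.5 CPM in Vehicle mice. Its log2 fold change in LJP was 1.39 ± 0.33 (SE, edgeR adjusted p = 0.032). Csf3r is also made by neutrophils. The 12 neutrophil markers, Csf3r included, summed to 5.42 to 6.84 CPM in Sham and 10.2 to 22.3 in LJP mice. Csf3r made up most of that sum in each of these mice, so the sum is not separate from it. Csf3r was the only one of 12 with enough counts to be tested, and 1 of the 12 had no read in any mouse.

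Of 38 cytokines and chemokines listed, 28 had enough counts and 8 of these were higher (11 higher and 3 lower of 21 in the 8 mice). The median log2 fold change was 1.24, or 0.97 with genes at the floor of 3 reads set to their bound, beside 2.74 in Vehicle mice, where 19 were higher and 2 lower. The summed level of the list ran the other way, at 1223 to 1275 CPM in Sham and 1023 to 1139 in LJP mice. The microglial chemokine Ccl3 was at 0.0577, 0.599, 0.164 and 0.415 CPM in Sham and 1.9984, 2.10, 2.56 and 2.17 CPM in LJP mice. Its relative Ccl4 was at 0, 0.218, 0 and 0.104 CPM in Sham and 1.04, 0.818, 1.79 and 1.06 CPM in LJP mice. In both genes every LJP mouse was above every Sham mouse. Cxcl10, an interferon-induced T cell attractant, was at 0.404, 0.109, 0.274 and 0.259 CPM in Sham and 2.82, 1.48, 1.25 and 1.84 CPM in LJP mice (log2 fold change 2.80, edgeR adjusted p = 0.00485). Cxcl16, Ccl12, Csf1, Lif and Tgfb1 also rose, by 3.13, 3.23, 1.15, 2.79 and 1.41.

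Some of the inflammatory genes that the study names had very few reads in both groups. Csf3, which encodes granulocyte colony-stimulating factor, had 0, 2, 1 and 0 reads in Sham mice and 0, 1, 1 and 0 in LJP mice, at or under 3 reads in each library, so no fold is given. The Vehicle mice had 53, 111, 74 and 47 reads, and LJP differed from Vehicle (edgeR adjusted p = 0.000929). Il1b had 0, 2, 4 and 4 reads in Sham and 1, 3, 4 and 1 in LJP mice, too few for the fit, and an exact two-sided permutation test of the log2 levels gave p = 0.886 with 4 mice a group. Il6 had at most 1 read in any Sham or LJP mouse (exact permutation p = 1). Tnf had 0, 1, 4 and 0 reads in Sham and 6, 3, 7 and 3 in LJP mice, a ratio of 3.57 (exact 95% counting interval 1.29 to 12.2), and its exact permutation p was 0.0857, while 0.0286 is the smallest that 4 against 4 mice can give. These low counts limit what could be detected. Nos2, the inducible nitric oxide synthase, had levels of 0.519, 1.42, 0.603 and 0.259 CPM in Sham and 0.545, 0.614, 0.979 and 0.334 CPM in LJP mice and did not pass (log2 fold change -0.18, edgeR adjusted p = 0.936). Cd86, a costimulatory protein of activated myeloid cells, rose by 1.58 (edgeR adjusted p = 0.0316), and Aif1, which encodes Iba1, rose by 1.75 (edgeR adjusted p = 0.00367). Mrc1, which encodes CD206, had a log2 fold change of 0.64 and did not pass (edgeR adjusted p = 0.55).

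Interferon-stimulated genes were higher in part. Of 40 members, 15 passed, all higher, and 30 were higher in the 8 mice. The list median was 1.23 in LJP and 1.65 in Vehicle mice against Sham. The count was 6, 6, 5 and 6 without Sham mouse 1, 2, 3 or 4, and 6 without LJP mouse 1 or 3. LJP mouse 1 was the highest LJP mouse in each of the 5 genes named next. Irf7, the transcription factor that amplifies interferon production, was at 1.96, 1.53, 2.52 and 1.71 CPM in Sham and 19.8, 3.07, 5.44 and 5.07 CPM in LJP mice. Ifit3, an antiviral protein with a near copy Ifit3b, was at 5.13, 4.85, 5.48 and 5.70 CPM in Sham and 22.6, 10.7, 10.9 and 10.9 CPM in LJP mice, so 3 LJP mice lay close together and mouse 1 lay apart. Irf7 rose by 2.11 ± 0.52 (SE, edgeR adjusted p = 0.0366) and Ifit3 by 1.38 ± 0.26 (SE, edgeR adjusted p = 0.00777). Without LJP mouse 1 the log2 fold change of Irf7 was 1.23 and no longer passed (edgeR adjusted p = 0.0676), and it did not pass either without any one of the Sham mice or without LJP mouse 3. Irf8, the myeloid regulatory factor, rose by 1.63, Bst2 (tetherin, which holds virus particles at the cell surface) by 2.17 (1.58 without LJP mouse 1) and Usp18, which removes ISG15 from proteins, by 2.04.

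Some antigen presentation genes were higher. For class I, 5 of 16 members were higher (11 in the 8 mice), with a list median of 0.70, and for class II 3 of 10 were higher (4 in the 8 mice), with a median of 0.80. B2m, the light chain of class I molecules, was at 39.0, 39.6, 38.7 and 37.9 CPM in Sham and 135, 50.7, 106 and 76.1 CPM in LJP mice, higher by 1.25 on the log2 scale (edgeR adjusted p = 0.0267). Psmb8, Psmb9 and the peptide transporter Tap1 rose by 1.81, 1.71 and 1.80. The class I count was 1 without Sham mouse 1, 2 or 4 or LJP mouse 1 or 3, 0 without Sham mouse 3, and 8 without Vehicle mouse 2 or 3. Ifi30, a lysosomal thiol reductase that prepares antigens for class II, was at 2.31, 1.63, 1.04 and 1.71 CPM in Sham and 21.8, 11.1, 29.2 and 8.97 CPM in LJP mice.

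Cell cycle genes were higher in part. Of 36 members, 18 were higher and 0 lower, and 34 were higher in the 8 mice. The median log2 fold change was 1.77 in LJP and 2.37 in Vehicle mice. Mki67, the antigen Ki-67 of dividing cells, was at 4.56, 4.03, 4.16 and 3.68 CPM in Sham and 28.4, 16.5, 47.5 and 13.9 CPM in LJP mice, a log2 fold change of 2.69 ± 0.51 (SE, edgeR adjusted p = 0.00958). Top2a, the topoisomerase of dividing cells, was at 3.86, 2.34, 2.41 and 3.11 CPM in Sham and 20.7, 9.71, 27.4 and 7.30 CPM in LJP mice, and the mitotic kinase Cdk1 rose by 3.81. The replication genes Mcm3 and Rrm2 rose by 1.99 and 2.15, and Ccnd1, the cyclin of cell cycle entry, by 1.04. Every named member was higher in LJP mice 1 and 3 than in mice 2 and 4. The count of higher members was 6, 5, 8 and 9 without Sham mouse 1, 2, 3 or 4, 8 without LJP mouse 1 or 3, and 33 without Vehicle mouse 2.

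In the matrix and vascular lists few genes passed in LJP mice. Of 47 genes of the extracellular matrix and scar, 3 passed (20 in the 8 mice, 14 without Vehicle mouse 2, 7 without Vehicle mouse 3), against 38 in Vehicle mice. The list median was 0.53 in LJP and 2.45 in Vehicle mice. The 3 were Lgals1, a galectin, at a log2 fold change of 2.87, Timp1 at 2.89 and the macrophage elastase Mmp12. Of 30 endothelial and barrier genes 1 passed, a share no larger than the 3.85% of all genes called higher, and in the 8 mice 4 were higher and 3 lower of 27. It was Vwf, the clotting carrier of endothelial cells, at 31.6, 23.5, 27.4 and 25.1 CPM in Sham and 85.0, 75.9, 168 and 72.7 CPM in LJP mice (log2 fold change 1.90, edgeR adjusted p = 0.032). Vwf no longer passed without any one of the Sham mice or without LJP mouse 1 or 3, and the Vehicle mice had 22 members higher. Fibroblast markers summed to 62.4 to 111 CPM in LJP and 64.2 to 70.6 in Sham mice, endothelial markers to 178 to 243 and 188 to 207, and none of either passed. In the 8 mice 1 endothelial marker was higher and 1 lower. Monocyte and macrophage markers summed to 16.3 to 37.3 CPM in LJP and 11.1 to 15.3 in Sham mice, and 0 of 9 passed (3 of 5 in the 8 mice). The other 4 of the 9 had enough counts only with the Vehicle mice in the filter. Whether the LJP and Vehicle values of these lists differ was tested only gene by gene, and none of their members passed.

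In the NF-kappa B list 1 of 21 members passed, a share close to the 3.85% of all genes called higher. It was Bcl3, an atypical inhibitor protein that also drives transcription, at 0.404, 0.327, 0.274 and 0.415 CPM in Sham and 6.45, 5.01, 10.6 and 4.07 CPM in LJP mice (log2 fold change 4.17, edgeR adjusted p = 0.00114). In the 8 mice 9 of 21 members were higher and 0 lower, beside 12.1% and 11.8% of all genes, so the share there was larger. The count was 5, 3 and 2 without Vehicle mouse 2, 3 or 4. Of 34 heat shock and oxidative stress genes 4 were higher, the metallothioneins Mt1 and Mt3, the stress factor Atf3 and the ferritin chain Ftl1, with log2 fold changes of 1.16, 0.42, 2.60 and 1.19. In the 8 mice 13 of 33 were higher and 5 lower, beside 12.1% and 11.8% of all genes. Mt1 was at 91.1, 109, 101 and 104 CPM in Sham and 200.1, 220.0, 278 and 211 CPM in LJP mice. The count was 2 without any one Sham mouse or LJP mouse 1 or 3, 10 without Vehicle mouse 2 and 7 without Vehicle mouse 3. Of 33 lipid genes 3 were higher (8 without Vehicle mouse 2, and 10 higher and 4 lower in the 8 mice): Abca1, the cholesterol exporter, Srebf1, a regulator of lipid synthesis, and Plin2, a coat protein of lipid droplets. The median log2 fold change of the list was -0.0018, and its share of lower genes in the 8 mice was close to the 11.8% of all genes. Plin2 was at 4.90, 4.96, 4.71 and 5.75 CPM in Sham and 39.4, 16.7, 73.9 and 15.996 CPM in LJP mice, and it no longer passed without any one of the Sham mice or without LJP mouse 3. Of 22 axon regeneration genes tested, Lgals1, Atf3 and Anxa2 were higher (5 members without Vehicle mouse 2, and 8 higher and 4 lower of 21 in the 8 mice). The median of that list was 0.079, and of all genes 12.1% were higher and 11.8% lower in the 8 mice.

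**Figure D3:**
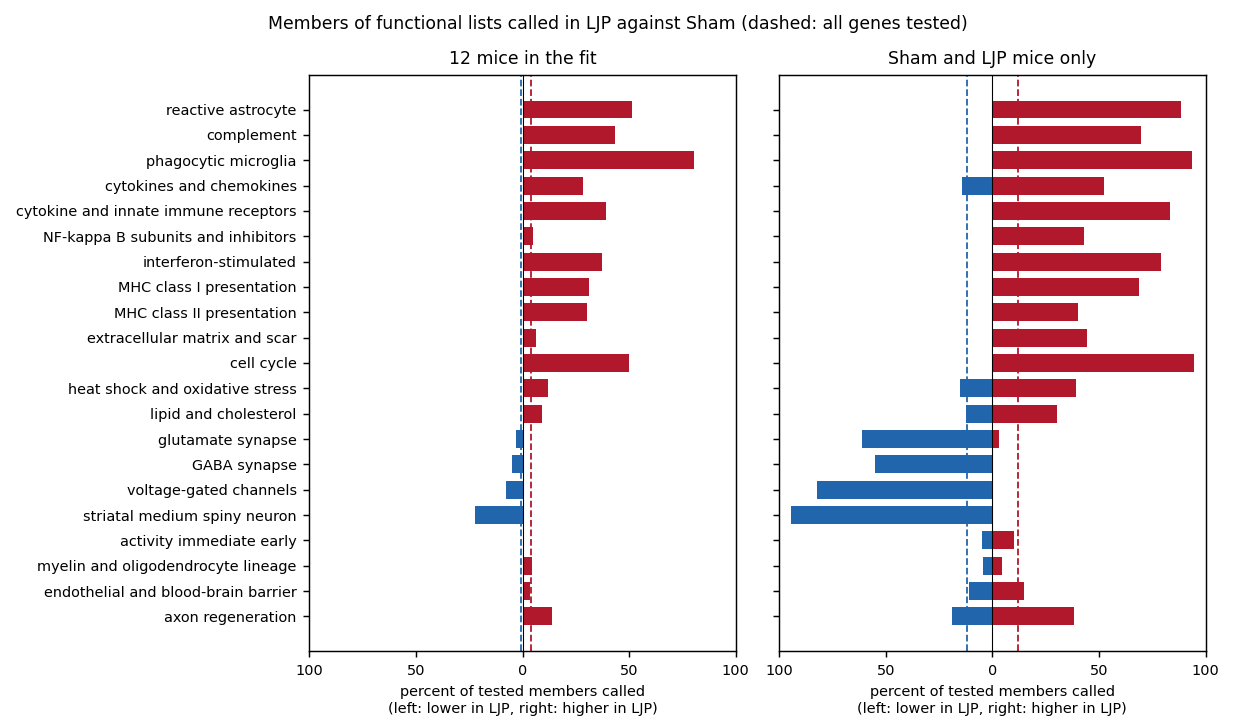
Percent of tested members of each functional list (rows) that were called higher (right, red) or lower (left, blue) in LJP than in Sham mice, in the fit of all 12 mice and in the fit of the 8 Sham and LJP mice, with dashed lines at the percent of all genes called. Phagocytic microglia, reactive astrocyte and cell cycle genes reach farthest to the right in the left panel, and in the right panel 34 of 36 striatal neuron genes lie to the left.

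The functional list with the largest number of lower genes was that of the striatum. Of 36 genes of medium spiny neurons, the main output cells of the striatum, 8 were lower and 0 higher, and in the 8 mice 34 of 36 were lower. The median log2 fold change was -0.88 in LJP and -1.61 in Vehicle mice. Without Sham mouse 1, 2, 3 or 4 the count was 3 each, without LJP mouse 2, 3 or 4 it was 4, 3 and 3, and without Vehicle mouse 2 it was 32. Foxp1, a transcription factor of these neurons, was at 219, 210.5, 195 and 197 CPM in Sham and 137, 134, 119 and 134 CPM in LJP mice, a log2 fold change of -0.65 ± 0.07 (SE, edgeR adjusted p = 0.000745). Pcp4, a regulator of calmodulin, was at 231, 212, 209 and 222 CPM in Sham and 137, 95.5, 90.7 and 112 CPM in LJP mice (log2 fold change -1.01, edgeR adjusted p = 0.00433). In each of the 8 genes all LJP mice lay below all Sham mice.

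Adora2a, the adenosine receptor of the indirect pathway, was at 163, 180.0, 164 and 151 CPM in Sham, 88.6, 65.1, 43.9 and 54.1 CPM in LJP and 28.4, 7.09, 39.1 and 29.4 CPM in Vehicle mice. Its log2 fold change was -1.39 in LJP ± 0.36 (SE, edgeR adjusted p = 0.0484) and -2.67 in Vehicle mice, and the difference between them did not pass (edgeR adjusted p = 0.0711). Rasgrp2, a calcium-responsive exchange factor, fell by 1.09 on the log2 scale, the lipid kinase Dgkb by 0.89, the phosphodiesterase Pde1b by 0.85 and the retinoid receptor Rarb by 0.88. In all 8 genes LJP mouse 3 was the lowest of the LJP mice and LJP mouse 1 the highest.

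**Figure D4:**
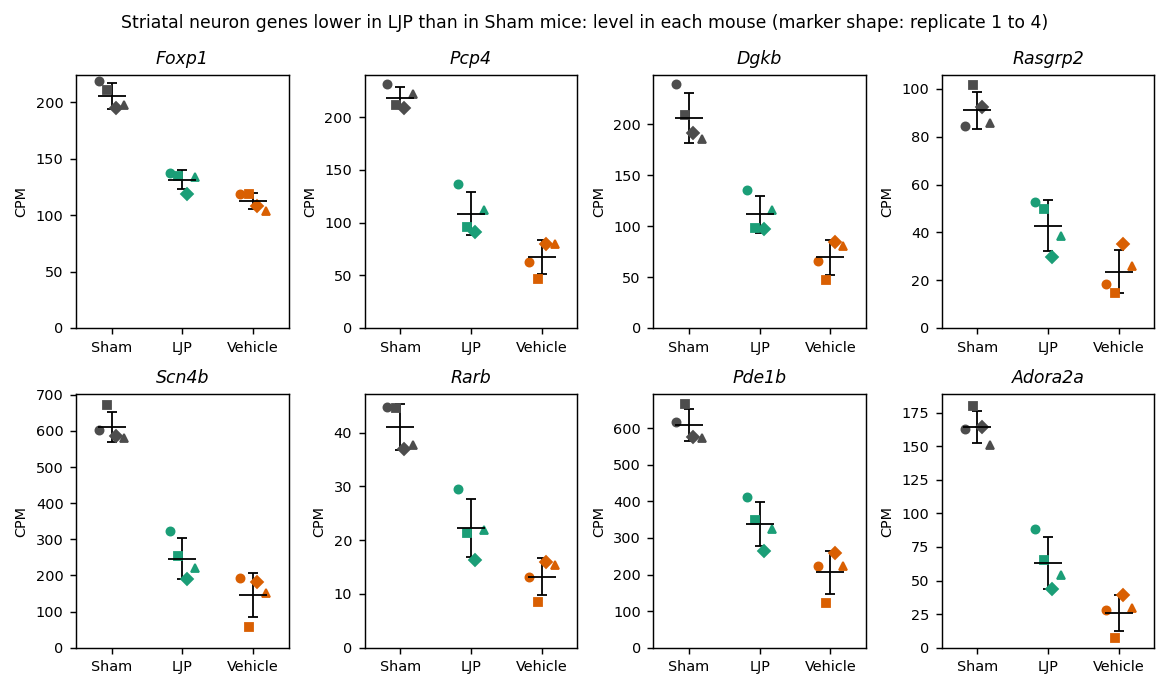
Level in CPM (vertical axes, each from 0) of the 8 genes of striatal medium spiny neurons that were lower in LJP than in Sham mice, 1 point a mouse, with the mean and SD (n = 4 a group) as a black bar. The LJP points lie below the Sham points in all panels, and in 5 of the 8 panels also above all Vehicle points.

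A few ion channel and synapse genes were also lower. Of 39 voltage-gated channel genes 3 were lower (32 in the 8 mice), of 31 glutamate synapse genes 1 (19 lower and 1 higher in the 8 mice) and of 20 GABA synapse genes 1 (11 in the 8 mice). Of all genes 0.900% were lower, and 11.8% in the 8 mice. The list medians were -0.32, -0.24 and -0.24 in LJP mice and -0.71, -0.70 and -0.52 in Vehicle mice. Scn4b, a sodium channel subunit enriched in the striatum, was at 603, 671, 587 and 579.9 CPM in Sham and 323, 255, 189.7 and 219 CPM in LJP mice (log2 fold change -1.31 ± 0.29 SE, edgeR adjusted p = 0.0211). Kcnab1, a potassium channel subunit, fell by 0.81, and Cacna1c, the main pore of L-type calcium channels, by 0.37. Shank3, the postsynaptic scaffold, was at 559, 579.6, 549 and 573 CPM in Sham and 416, 417, 317 and 348 CPM in LJP mice. Gabra4, a GABA receptor subunit, was at 98.3, 93.3, 93.0 and 97.0 CPM in Sham and 65.4, 61.3, 55.0 and 69.2 CPM in LJP mice, so neither gene overlapped between the groups. Without any one of the Sham mice, or without LJP mouse 3 or 4, 0 channel genes and 0 glutamate genes passed. Without LJP mouse 1 or 2, 1 channel gene passed, and without Vehicle mouse 2 there were 19 channel, 11 glutamate and 4 GABA genes. Leaving out Vehicle mouse 1, 3 or 4 gave 2 glutamate genes, and 0 GABA genes passed without Sham mouse 1 or LJP mouse 3. None of 8 general neuronal markers passed (3 lower and 1 higher in the 8 mice). Among marker lists of other cell types, 0 of 8 pericyte, 0 of 2 B cell, 0 of 5 erythroid and 0 of 9 choroid plexus genes passed. In the 8 mice 5 choroid plexus genes were lower, 2 pericyte genes were higher and 2 lower, and 1 of 3 erythroid genes was higher. Of 3 T cell genes 1 was lower, Cd4.

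Other genes with the smallest p-values among the lower ones were of mixed kind. Nexn, an actin-binding protein, was at 13.4, 11.3, 10.3 and 11.3 CPM in Sham and 5.9953, 3.68, 2.88 and 4.01 CPM in LJP mice. Dach1, a transcription factor, was at 25.9, 25.9, 22.4 and 21.8 CPM in Sham and 13.8, 9.56, 6.42 and 7.02 CPM in LJP mice. Neither gene overlapped between the groups, which the rule that chose them required, and their log2 fold changes were -1.48 and -1.38. Gpr139, a receptor for aromatic amino acids, fell by 2.16 on the log2 scale. Rn7s2 and Rn7s1, near copies of the RNA of the signal recognition particle, were both lower. Rn7s2 was at 5.02, 9.26, 12.8 and 16.2 CPM in Sham and 0.863, 0.409, 1.63 and 0.390 CPM in LJP mice, and Rn7s1 at 3.63, 5.39, 6.85 and 6.9965 CPM in Sham and 0.545, 0.511, 1.79 and 0.167 CPM in LJP mice. This RNA has no poly(A) tail, its reads cannot be placed between the copies, and its part in poly(A) libraries was not tested. TrnW, a mitochondrial tRNA, fell by 1.56.

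A set of airway and lung transcripts was lower in LJP mice than in Sham mice, and 3 of them were also lower than in Vehicle mice. Scgb1a1, the club cell secretoglobin, had 105, 93, 102 and 113 reads in Sham mice, 0, 0, 0 and 0 in LJP mice and 84, 123, 79 and 105 in Vehicle mice. Against a floor of 3 reads per library it was at least 36.4-fold lower in LJP than in Sham mice (edgeR adjusted p = 7.67e-06). Sftpa1, a surfactant protein, had 27, 42, 27 and 41 reads in Sham and 0, 0, 0 and 0 in LJP mice, at least 12.0-fold lower. Sftpb had 16, 15, 20 and 18 reads in Sham and 2, 0, 0 and 0 in LJP mice, a ratio of 0.0273 (exact 95% counting interval 0.00324 to 0.102). Slc34a2, a phosphate transporter of lung epithelium that is not in the airway and lung list, was lower as well (edgeR adjusted p = 0.00887). Of the 8 list members tested, Scgb1a1, Sftpa1 and Sftpb were lower (5 of 7 in the 8 mice) and 1, Scgb3a1 (named after its values were seen), was higher, at 2, 2, 1 and 3 reads in Sham and 27, 9, 25 and 8 in LJP mice. Scgb3a1 had too few counts to be tested in the 8 mice, where 0 members were higher. Their summed level was 12.0 to 16.6 CPM in Sham, 2.61 to 5.22 in LJP and 15.4 to 25.3 in Vehicle mice. These genes are not made by brain cells as far as is generally known, and the source of the reads was not tested.

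Some lists held no or 1 gene that passed. Of all genes tested 3.85% were higher and 0.900% lower, and in the 8 mice 12.1% and 11.8%. In 20 immediate early genes of neuronal activity 0 passed (2 higher and 1 lower in the 8 mice). Egr1, an activity-dependent transcription factor, was at 404, 328, 372 and 398 CPM in Sham and 272, 288, 218 and 408 CPM in LJP mice, with overlap. Of 22 genes of myelin and the oligodendrocyte lineage 1 passed (1 higher and 1 lower in the 8 mice), a share close to that of all genes called higher. It was Cldn11, the tight junction protein of myelin, at 142, 169, 163 and 174 CPM in Sham and 226, 262, 349.6 and 214 CPM in LJP mice (log2 fold change 0.70, edgeR adjusted p = 0.0101).

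The LJP mice were not alike. Over the 676 higher genes, the median log2 distance from the Sham mean was 1.67, 1.06, 1.88 and 1.08 in LJP mice 1 to 4. Over the 158 lower genes it was -0.43, -0.53, -0.65 and -0.55. LJP mice 1 and 3 were thus farther from Sham than LJP mice 2 and 4 in the higher genes, but LJP mouse 1 was the nearest to Sham in the lower genes. In the phagocytic microglia list the medians were 2.35, 1.25, 2.60 and 1.26 in LJP mice and 2.22, 3.03, 2.28 and 2.43 in Vehicle mice. In the striatal list they were -0.56, -0.85, -1.27 and -0.91 in LJP mice, and in the reactive astrocyte list 1.57, 1.14, 1.96 and 1.23, beside 3.38, 3.57, 1.67 and 2.16 in Vehicle mice.

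**Figure D5:**
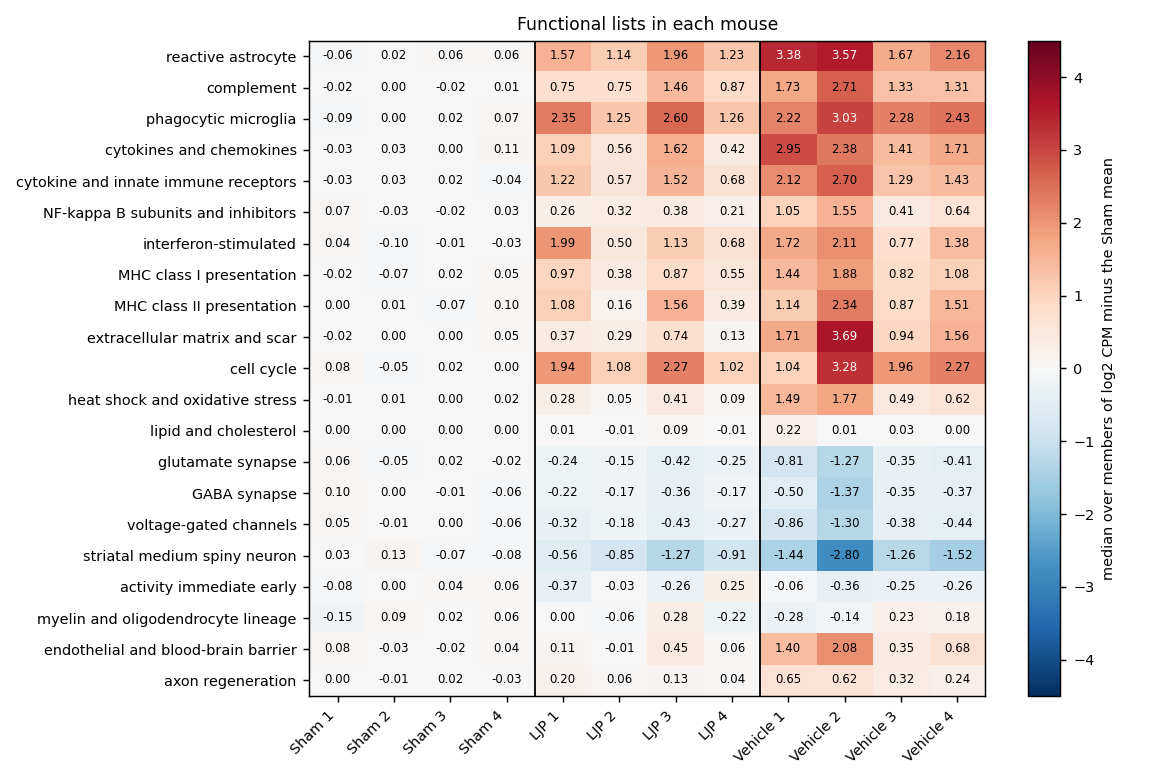
Median over the tested members of each functional list (rows) of log2 CPM minus the Sham mean, in each of the 12 mice (columns), with the value printed in each cell and red for above and blue for below Sham. LJP mice 1 and 3 are redder than LJP mice 2 and 4 in the microglial, interferon and cell cycle rows, and Vehicle mouse 2 is the farthest from Sham in most rows.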

How the data were processed

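The authors deposited raw read counts per gene for 12 mice. The labels' processing notes name featureCounts, DESeq2 and the builds GRCm39 and mm10, without versions here, and the positions in the deposited counts are those of GRCm38. The strand setting of the counting is not given in the sources used here, so reads of overlapping genes on opposite strands, such as Ccl3 and Ccl4, Timp1 and Syn1 or Gabra4 and Gabrb1, cannot be told apart.

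Groups came from the labels, with 4 mice each. Genes with low counts were removed with filterByExpr, libraries were scaled by TMM, and all 12 mice were fitted with edgeR 4.0.16 (R 4.3.3, limma 3.58.1) by the quasi-likelihood test with 1 coefficient a group. The contrast was LJP minus Sham, with Benjamini-Hochberg adjustment over all genes tested and a threshold of 0.05. Genes with too few counts were compared by an exact two-sided permutation test of log2(CPM + 0.5). Counting intervals are exact at 95%, and the floor is 3 reads per library. Intervals and floors cover counting error only. No label says that the mice of a group are separate litters. The p-values set group differences against the spread between mice, which was estimated over all 12, the Vehicle mice included.

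Genes named in the text were drawn from a rule that selects the 12 with the smallest p-value in each direction (over 2-fold, no overlap), the 10 with the largest fold in each direction at 1 CPM or more in the higher group, the top 3 and all passing members of each functional list, 8 genes the study names and those that differed between LJP and Vehicle. Not every gene the rule selects is named, and unnamed gene models were only counted. Aldh1l1, Cd4, P2ry12 and Scgb3a1 are members of the marker lists and were named outside this rule. The members and gene lists were chosen with earlier results of these data known. No pair of libraries was a duplicate (chi-square per degree of freedom 2.56 or more). Alternatives were RLE scaling, library size only, no filter, DESeq2 1.42.0, the 8 Sham and LJP mice alone, a replicate block, other thresholds (absolute log2 fold change over 0.58 with unadjusted p under 0.01, or adjusted p under 0.05 with absolute log2 fold change over 1) and leaving out each mouse. Promoters are those of RefSeq on GRCm38.p6. Figures were drawn with matplotlib 3.10.9.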

Additional observations from a re-analysis of the deposited data

Results flagged for a closer look

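In 11 of 257 groups of 4 mice examined for the genes named, the highest or lowest mouse stood apart from the rest by Dixon's criterion, and chance gives about 1 in 20. In LJP mice these were Serpina3n at 305 CPM (others 143 to 167), Ifit3 at 22.6 (10.7 to 10.9), Irf7 at 19.8 (3.07 to 5.44), Vwf at 168 (72.7 to 85.0), Mt3 at 236 (253 to 256) and Sftpb at 0.0908 (others 0). In Sham mice they were Gfap at 107 CPM (others 151 to 155), Tlr2 at 0.981 (0.570 to 0.603), Hcar2 at 0.164, Hmga2 at 0.0545 and Il6 at 0.0545, with the other mice at 0 for the last 3.

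The change from Sham differed between LJP and Vehicle mice in 4 genes by the direct edgeR test. The fitted log2 difference of LJP minus Vehicle was -6.74 for Csf3, -9.53 for Scgb1a1, -7.77 for Sftpa1 and -4.60 for Sftpb, values that depend on the prior count since LJP mice had 0 to 2 reads.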

How the results depend on the processing

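Beside the 834 genes changed, DESeq2 gave 1458 (1081 higher, 377 lower), the 8 mice alone 4043 (2048 and 1995), the replicate block 464 (405 and 59) and an added 2-fold threshold 521 (34 lower). The lower genes numbered 105 with library size only and 101 with no filter. RLE scaling gave 844 and the study's thresholds 1036. Leaving out 1 mouse gave 393 to 2357 changed, 350 to 1380 higher and 43 to 977 lower genes. Deviations of Sham and LJP mice with the same replicate number correlated at -0.04 to 0.04, and those with other numbers at -0.15 to 0.13. In 2 of 4 numbers the best match was their own. With so few mice this shows no clear pairing by replicate number and cannot exclude one. Of the 165 passing genes that the naming rule selects, not all of which are named above, 165 did so in DESeq2, 160 in the 8 mice and 110 with the block. Leaving out Sham mouse 1 lost 70 of them and LJP mouse 3 lost 65. None changed sign. Nos2, which did not pass, ranged from -0.47 to 0.42 when 1 mouse was left out, above 0 without Sham mouse 2 (0.42) or LJP mouse 4 (0.02). The cause of these shifts was not tested. Depth limits what Csf3, Il1b, Il6 and Tnf can show, with few reads in Sham and LJP mice.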
